A study of Mus musculus with 16 samples.

Results

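The gene-dense windows are the fixed 1 Mb windows of the mouse autosomes (build mm10, numbered from the start of each chromosome) that overlap at least 20 protein-coding genes of GENCODE M21. Olfactory receptor (Olfr), vomeronasal receptor (Vmn) and predicted (Gm) genes were not counted. The rule used the annotation and no break data, and it gave 224 of the 2470 windows on the 19 autosomes. A further 57 windows held no end in any library, which left 2189 other windows with ends for comparison. BLISS joins an adapter to the free DNA ends of double-strand breaks inside fixed cells, and each value below counts ends listed by this method. Whether each listed end is a double-strand break was not tested. The cells were AB22, a line from a mouse malignant mesothelioma, infected with a pTRIPZ viral vector and selected with puromycin, and no clone is named. One line carried a doxycycline-induced hairpin against HMGB1 (shHMGB1) and the other a control hairpin (shCTRL). HMGB1 is an abundant protein that bends DNA and loosens its contact with nucleosomes. Both lines were kept on doxycycline for several days, synchronised in G1 and exposed to gamma rays from a caesium source at 0, 3, 5 or 10 Gy. Each of the 8 groups of hairpin and dose had 2 libraries, described by the study as biological replicates. The sources used here do not say whether they came from separate cultures, so p-values measure the spread between these libraries. Break ends carry no measure of HMGB1 itself, so the knockdown could not be checked here.

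Genes are unevenly spread along mammalian chromosomes. Gene-dense stretches are rich in promoters and exons, replicate early, are mostly held in open chromatin and carry many housekeeping genes with short introns. A smaller group of gene-dense stretches holds tandem families, arrays of related genes made by local duplication, many of which are silent outside 1 tissue. Double-strand breaks arise along transcribed genes, at replication obstacles and from topoisomerases, and ionising radiation adds breaks along the whole genome.

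The positions that held most ends in several of the densest gene-dense windows lay in small nucleolar RNA (snoRNA) genes and nuclear long noncoding RNA genes, and their sequences are shown for that reason. Those of Snord99 and Gm25894 come from dense clusters described below, and those of Neat1 and Calr, a protein-coding gene, from genes called below. No transcript sequence was available at the top positions of chr4:155000001-156000000, chr15:76000001-77000000 and chr15:77000001-78000000. SnoRNAs are short RNAs, mostly cut from introns of host genes, that guide chemical modification of ribosomal RNA. Each sequence is a GENCODE M21 transcript or a stretch of one, 5′ to 3′ on the strand of the gene, and the capital marks the base with most ends over the 16 libraries together.
Snord35a in Rpl13a, chr7:45126346-45126435, minus strand: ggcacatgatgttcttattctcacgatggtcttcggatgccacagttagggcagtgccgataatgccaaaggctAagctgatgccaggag
Gm23969 (annotated snoRNA) in Rpl7a, chr2:26911261-26911334, plus strand: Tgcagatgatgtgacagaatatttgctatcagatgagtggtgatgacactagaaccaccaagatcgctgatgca
Snora73a in Snhg3, bases 24 to 124 of the transcript chr4:132352775-132352979, minus strand: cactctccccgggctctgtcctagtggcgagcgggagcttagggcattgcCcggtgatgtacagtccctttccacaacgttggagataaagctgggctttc
Snord99 in Snhg12, chr4:132310691-132310764, plus strand: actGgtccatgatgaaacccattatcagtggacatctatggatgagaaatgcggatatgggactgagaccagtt
Gm25894 (annotated snoRNA) in Snhg1, chr19:8724251-8724325, plus strand: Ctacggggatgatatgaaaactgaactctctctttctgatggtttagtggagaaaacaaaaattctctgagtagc
Malat1, bases 83 to 183 of the transcript chr19:5801916-5802671, minus strand: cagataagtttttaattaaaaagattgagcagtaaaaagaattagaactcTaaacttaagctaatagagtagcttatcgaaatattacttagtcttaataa
Neat1, bases 356 to 456 of the transcript chr19:5842307-5845476, minus strand: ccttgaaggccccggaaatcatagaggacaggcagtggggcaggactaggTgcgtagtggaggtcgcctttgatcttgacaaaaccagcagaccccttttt
Calr, bases 715 to 815 of the transcript chr8:84842596-84844916, minus strand: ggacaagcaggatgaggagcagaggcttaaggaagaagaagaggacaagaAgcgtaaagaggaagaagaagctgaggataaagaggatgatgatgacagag

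The Gm23969 base held 2943 of the 15225 ends of its window. The Snord35a base held 2631 of 20455 ends, the Malat1 base 3665 of 57591 and the Snora73a base 418 of 11158. By their medians the piles of snoRNA genes lay near the lower coordinate on both strands. In gene-dense windows, for snoRNA genes with at least 200 ends, the median distance from it was 0 bases on the plus strand. On the minus strand it was 11 bases. Of these genes, the most used base lay within 10 bases of the lower coordinate in 33 of 35 plus-strand and 11 of 25 minus-strand genes. It lay within 10 bases of the higher coordinate in 0 genes of either strand. The files give no strand, so whether a listed position is the ligated end or the leftmost aligned base is not known. A shift of that size is negligible on the scale of 1 Mb windows. The 201 snoRNA genes of these windows cover 0.00990% of their length and held 5.71% to 15.2% of their ends, with dense clusters kept, with a median of 7.29% over the 16 libraries.

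The libraries held 697315 to 1020770 ends in shHMGB1 cells and 132390 to 936610 ends in shCTRL cells. Clusters of at least 1000 ends in any library formed 32 dense regions, padded by 1 kb, which held 18.3% to 26.7% of a library's ends on the main chromosomes. They were left out of every library unless stated. Of these regions, 4 lay in gene-dense windows. One covered Snhg12 with Snord99 and one Snhg1 with Gm25894, both hosts of snoRNAs. The region at chr16:17221257-17223360 held 11787 ends and the one at chr17:36230368-36232416, beside major histocompatibility genes, held 7127 ends, and neither had an annotated gene at its most used position. A library had 17488 to 113876 ends in gene-dense windows outside the dense regions. Replicates of a group differed by more than sampling noise, with chi-square values over windows of 2.16 to 6.74 per degree of freedom, so no library was counted as a duplicate of another.

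The 224 windows were 9.28% of the autosomal windows with ends and held 6609 of the 18122 counted genes, or 36.5%. They held 20 to 67 genes, with a median of 26, against a median of 5 genes in the other windows. They lay on all 19 autosomes in 128 separate runs. Chromosome 11 had 28 of them, which was 23.5% of its windows, chromosome 7 had 21 and chromosome 2 had 20, whereas chromosome 18 had 3 and chromosome 12 had 4. Their genes were shorter, with a median span of 11.8 kb, against 30.3 kb for genes elsewhere. Sequence around the transcription starts of protein-coding genes, 1 kb to each side, made up 5.68% of gene-dense windows and 1.21% of the others, and exons outside it made up 10.6% of gene-dense and 3.33% of other windows. Introns made up 49.5% of gene-dense and 41.6% of other windows, and intergenic sequence 34.2% of gene-dense and 53.8% of other windows. The windows with most genes were chr7:45000001-46000000 with 67, chr11:69000001-70000000 with 64, chr18:37000001-38000000 with 63, mostly protocadherins, and chr2:25000001-26000000 with 61.

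Ends were denser in gene-dense windows than in the other windows in every library. The ratio of ends per Mb was 1.23 at its lowest, 1.74 at the median and 2.08 at its highest over the 16 libraries. The mean log2 ratio was 0.79, above 0 in 16 of 16 libraries (exact two-sided sign-flip permutation test over libraries, p = 3.05e-05, the smallest it can give). The lowest ratio belonged to shHMGB1 at 3 Gy replicate 2 and the highest to shCTRL at 3 Gy replicate 2, the smallest library. The ratio varied between chromosomes. Its mean over libraries was highest on chromosome 19, at 3.06, and lowest on chromosome 13, at 1.08. Chromosome 19 had 8 gene-dense windows, and in the densest of them 71.4% of ends lay in Malat1. With all ends kept, dense regions included, the mean log2 ratio was 0.42.

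Densities of single windows are given in CPM per Mb, where CPM are ends scaled to library size, here with TMM factors, outside the dense regions. The mean over the 16 libraries had a median of 552 over the 224 gene-dense windows and of 322 over 2187 other windows. The ranges overlapped, from 129 to 6833 in gene-dense windows and from 10.4 to 6000 in the others. The density went up with the number of genes on both sides of the limit of 20. The median was 281 in windows with no counted gene, 298 with 1 to 4 genes, 343 with 5 to 9, 395 with 10 to 14 and 419 with 15 to 19. It was 500 with 20 to 29 genes and 655 with 30 or more. Just inside the limit, the 30 windows with 20 genes had a median of 539 and a range of 252 to 1549, and the 19 windows with 21 genes had a median of 423 and a range of 194 to 1078. Just outside it, the 27 windows with 19 genes had a median of 417 and a range of 235 to 1136, and the 21 windows with 18 genes had a median of 478 and a range of 316 to 1157. These 4 medians showed no step at the limit. Across all windows the Spearman correlation of gene number and density was 0.49 (n = 2411), and within the gene-dense windows it was 0.27 (n = 224). Windows are not independent samples and share the same libraries, so these correlations are descriptions.

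**Figure D1:**
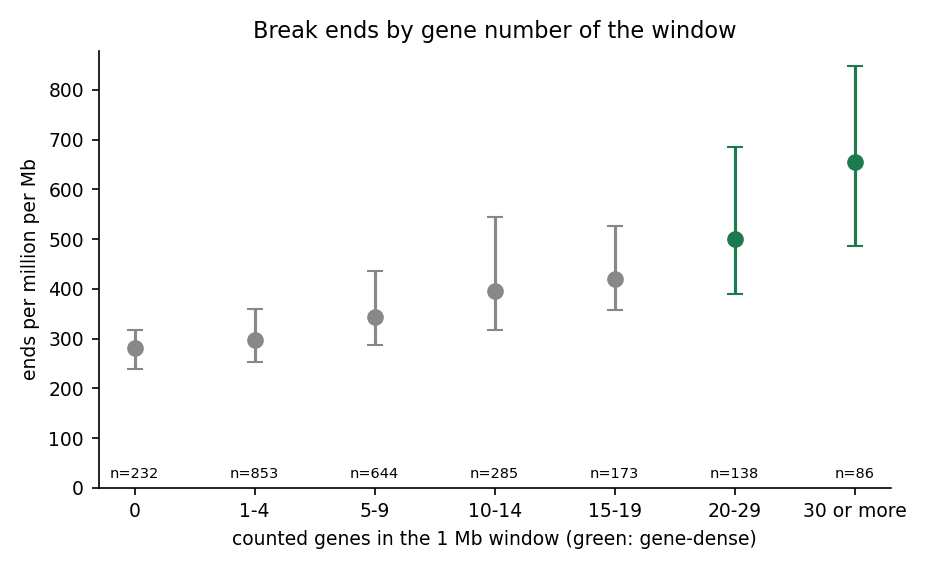
Break ends in CPM per Mb (vertical axis) by the number of counted genes in the 1 Mb window (horizontal axis), with points at the median and bars from the lower to the upper quartile over windows of the mean of 16 libraries. The medians go up from 281 in windows with no counted gene to 655 in windows with 30 or more, and the gene-dense windows are green.

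Every region class was denser in gene-dense windows than the same class elsewhere. Exons had a density ratio of 1.41 at its lowest, 1.76 at the median and 2.02 at its highest over the 16 libraries. Introns had 1.11, 1.40 and 1.58. Sequence around transcription starts had 1.02, 1.27 and 1.56, and intergenic sequence had 0.967, 1.23 and 1.42. The mean log2 ratios were 0.82 for exons, 0.48 for introns, 0.36 around starts and 0.29 for intergenic sequence (exact two-sided sign-flip permutation test, Benjamini-Hochberg over 4 classes, adjusted p = 4.07e-05 for the first 3 and 6.1e-05 for the last). These 4 comparisons were added after the data had been seen. The ratio around starts depended on the dense regions. With all ends kept it turned to -2.50 on the log2 scale. The largest dense region, at the predicted gene Gm10800 on chromosome 2, held 925425 ends outside gene-dense windows. It was 0.08 (exact permutation test, adjusted p = 0.0582) when clusters of at least 1000 ends were removed library by library.

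**Figure D2:**
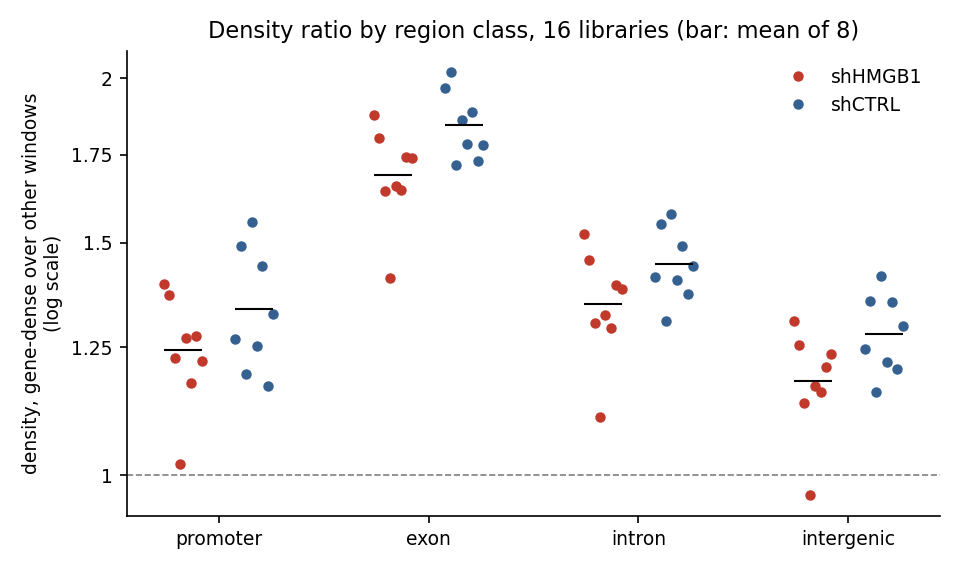
Ratio of end density in gene-dense windows over that in other autosomal windows (vertical axis, log scale) for 4 region classes, with a point for each library, shHMGB1 left and shCTRL right, and a bar at the mean of 8 libraries. Exons had the highest ratios in both lines, and only intergenic sequence had a library below 1, at 0.967.

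Promoters of both kinds of window had close median base composition but a different spread of it. Of the RefSeq promoter sequences (build GRCm38.p6, 250 bases before to 50 after the start), 6264 lay in gene-dense windows and 11147 in other windows. Their median GC content was 58.3% in gene-dense and 58.7% in other windows. The motif GGGCGG, on either strand, was present in 53.5% of those in gene-dense and 52.0% of those in other windows, and TATAAA, on either strand, in 9.26% of those in gene-dense and 10.3% of those in other windows. The density over these 300 bases was 0.926 ± 0.152 CPM per kb in gene-dense windows and 0.749 ± 0.081 in the others (SD, n = 16 libraries). Among promoters of 60% to 70% GC it was 1.23 ± 0.232 in gene-dense and 0.970 ± 0.142 in other windows. Below 50% GC it was 0.460 ± 0.109 in gene-dense and 0.453 ± 0.070 in other windows. At 70% GC or more it was 0.802 ± 0.328 in gene-dense and 0.739 ± 0.163 in other windows. Promoters below 50% GC were 15.9% of those in gene-dense and 23.5% of those in other windows, and promoters of 70% GC or more were 11.8% of those in gene-dense and 16.2% of those in other windows. These differences by GC content were not tested. Both kinds of window were measured in the same libraries, so the SDs do not measure the spread of the difference within a library. In gene-dense windows 36.3% of these promoters held no end in any library, and elsewhere 41.2% held none.

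A few genes carried much of the ends in the densest windows. The window chr19:5000001-6000000 was the densest of all autosomal windows, with 6833 ± 1673 CPM per Mb (SD, n = 16), and Malat1 held 71.4% of its ends. Malat1 is a long noncoding RNA of nuclear speckles and is among the most abundant nuclear transcripts of many cells. It had 694 CPM per kb, against a median of 0.501 over counted genes in gene-dense windows. Next among gene-dense windows came chr7:45000001-46000000 with 2633 ± 1310, in which the ribosomal protein gene Rpl13a held 62.7% of ends. Rpl7a held 63.9% of the ends of chr2:26000001-27000000, with 1925 ± 750. Both genes encode ribosomal proteins and host snoRNAs in their introns.

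The window chr4:155000001-156000000 had 1828 ± 307 and no such leader, as Ski, a repressor of TGF-beta signalling, held 13.8% of its ends. In chr15:77000001-78000000, with 1549 ± 268, Myh9, the heavy chain of nonmuscle myosin IIA, held 54.2%. In chr15:76000001-77000000, with 1427 ± 309, Plec, a linker of the cytoskeleton, held 42.7%. In chr4:132000001-133000000, with 1318 ± 289, Rcc1, a chromatin-bound exchange factor whose gene overlaps the snoRNA host Snhg3, held 39.2%. Ends in overlapping genes count for each of them. Leaving out the window of Malat1 and Neat1 gave a mean log2 density ratio over the other windows of 0.72.

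Of 45 gene-dense windows that hold a tandem family, taken as at least 8 counted genes whose symbols share their first 3 letters, 16 had fewer ends than the median of the windows outside the gene-dense set. Of the 179 other gene-dense windows 8 did. The density in tandem-family windows over that in the other gene-dense windows was 0.624 at its lowest, 0.688 at the median and 0.822 at its highest over the 16 libraries. The mean log2 ratio was -0.55, below 0 in 16 of 16 libraries (exact two-sided sign-flip permutation test, p = 3.05e-05, the smallest it can give). The lowest density among gene-dense windows was that of chr8:21000001-22000000, at 129 ± 22.1, where 31 of 35 counted genes are defensins, antimicrobial peptides of the gut and other epithelia. The second lowest, chr7:3000001-4000000, had 194 ± 44.8 and holds no tandem family by this rule. The serpin window chr12:103000001-104000000, with protease inhibitors of the liver, had 202 ± 18.5, and the type I interferon window chr4:88000001-89000000 had 205 ± 29.1. In that last window Focad, a large neighbouring gene, held 67.9% of the ends. Copy number and how uniquely reads align in repeated genes were not measured here, so their part in these densities was not tested.

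Families differed among themselves. The 4 keratin windows had 243 to 553 CPM per Mb and the 3 canonical histone windows had 293 to 527. The 6 zinc finger (Zfp) windows had 275 to 787, the 2 Hox windows 447 and 494, and the 2 major histocompatibility windows 402 and 855. The prolactin window had 226, the taste receptor window 246 and the window of Ugt glucuronosyltransferases 252. The 12 apolipoprotein L genes share their window with Myh9, at 1549.

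Gene lists, chosen with earlier results of these data known, are described gene by gene, in CPM per kb of gene on library totals. Of 90 keratin and keratin-associated genes in gene-dense windows (of 110 on the autosomes), the median density was 0.210. It was 0.245 for 26 kallikreins (of 27), 0.237 for 61 canonical histone genes (of 67) and 0.413 for 32 major histocompatibility genes (of 34). It was 50.1 for 8 snoRNA host genes (of 18), 4.90 for 22 highly transcribed genes (of 39) and 3.07 for 38 ribosomal protein genes (of 90). Outside gene-dense windows the medians were 35.0 for snoRNA hosts, 9.35 for highly transcribed and 1.61 for ribosomal protein genes. For the few members of the other lists there they were 0.151 for keratins, 0.330 for kallikreins, 0.580 for histones and 0.905 for major histocompatibility genes, the last 3 above their medians in gene-dense windows. The median over all counted genes was 0.501 in gene-dense windows and 0.384 elsewhere. Of break-repair and signalling genes 9 of 27 lay in gene-dense windows, with a median of 0.346, and Xrcc6, the Ku70 subunit of end joining, was the densest at 1.09. Of p53 targets 6 of 20 did, with a median of 1.03 and the proapoptotic gene Bax densest at 2.97, and of immediate early genes 13 of 22, with a median of 1.11 and the AP-1 subunit Fosl1 densest at 6.16. Elsewhere the medians were 0.473 for break-repair genes, 0.433 for p53 targets and 1.80 for immediate early genes. The first and last of these were above their medians in gene-dense windows.

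The share of autosomal ends that fell in gene-dense windows asks whether irradiation or the HMGB1 hairpin moved breaks toward or away from genes. In shHMGB1 cells the share was 16.4% and 15.7% at 0 Gy, 14.3% and 11.2% at 3 Gy, 13.98% and 13.4% at 5 Gy and 14.8% and 14.6% at 10 Gy. In shCTRL cells it was 15.6% and 17.4% at 0 Gy, 14.4% and 17.6% at 3 Gy, 15.5% and 16.9% at 5 Gy and 14.6% and 15.6% at 10 Gy. All 6 irradiated shHMGB1 libraries lay below both unirradiated ones of that line, whereas the doses overlapped in shCTRL cells. The 95% Wilson interval of the smallest library, shCTRL at 3 Gy replicate 2, was 17.4% to 17.8%, so counting error, which is all that it covers, was small beside the spread between replicates.

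The mean share was 14.3% ± 1.56 in shHMGB1 and 15.9% ± 1.22 in shCTRL cells (SD, n = 8 each). The mean difference over doses was -1.62 percentage points (exact two-sided permutation test within dose, p = 0.0262, and 0.105 adjusted over 4 tests of the share), which did not pass. Among libraries numbered 1 the means were 14.9% ± 1.07 in shHMGB1 and 14.99% ± 0.594 in shCTRL cells, and among those numbered 2 they were 13.7% ± 1.91 in shHMGB1 and 16.9% ± 0.875 in shCTRL cells (SD, n = 4 each). The means of the lines differed mainly among libraries numbered 2, though the numbers do not pair libraries across lines. Leaving out shCTRL at 0 Gy replicate 1 gave -1.85 points (adjusted p = 0.0370, exact permutation test) and leaving out shCTRL at 10 Gy replicate 1 gave -1.76 points (adjusted p = 0.0494, exact permutation test), both past the threshold.

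Irradiated libraries had a mean share of 14.7% ± 1.62 (SD, n = 12) and unirradiated libraries 16.2% ± 0.833 (SD, n = 4). The difference averaged over lines was -1.497 points and did not pass (exact two-sided permutation test within line, p = 0.0676, adjusted p = 0.135). In shHMGB1 cells the means were 13.7% ± 1.33 after irradiation (n = 6) and 16.03% ± 0.516 without (n = 2). In shCTRL cells they were 15.8% ± 1.27 after irradiation (n = 6) and 16.5% ± 1.28 without (n = 2). The difference between lines in this response was -1.60 points (exact permutation test, p = 0.239, adjusted p = 0.319), and the slope was -0.0978 points per Gy (exact permutation test, p = 0.326). A share is a proportion, so fewer breaks in gene-dense windows and more breaks elsewhere cannot be told apart without a measure of the total per cell.

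**Figure D3:**
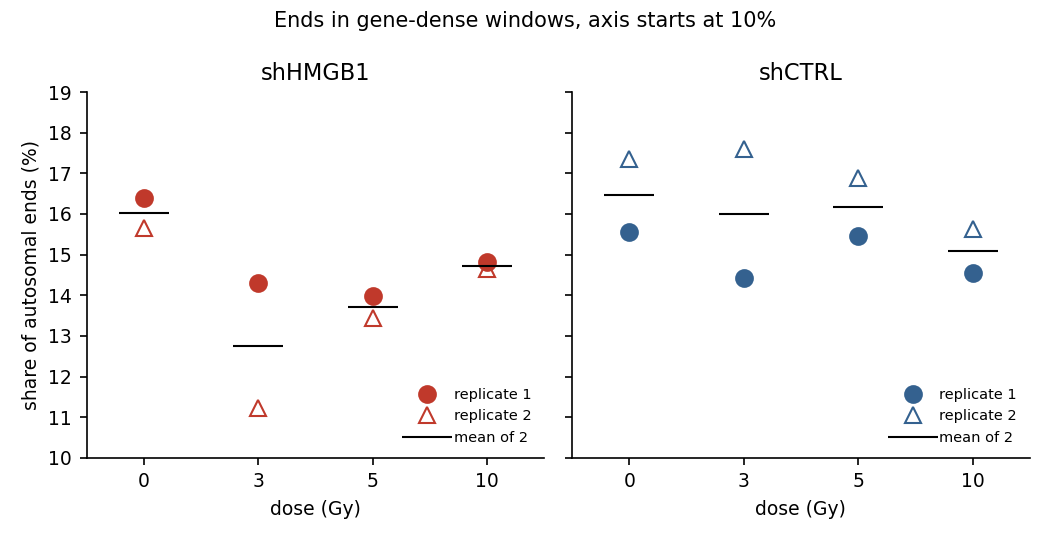
Share of autosomal ends in gene-dense windows in percent (vertical axis, starting at 10%) by dose in Gy (horizontal axis), for shHMGB1 (left) and shCTRL (right), with a symbol for each library by its replicate number and a bar at the mean of 2. The irradiated shHMGB1 libraries sit between 11.2% and 14.8%, below the 2 unirradiated ones, and replicate 2 lies above replicate 1 at every dose in shCTRL only.

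Within gene-dense windows, none of the 4 region classes passed in either comparison after adjustment over 8 tests. Exons held 25.02% ± 2.43 of the ends of these windows in shHMGB1 and 27.9% ± 1.31 in shCTRL cells (SD, n = 8 each), with an adjusted p of 0.0617 (exact permutation test). Intergenic sequence held 20.3% ± 2.10 in shHMGB1 and 17.95% ± 1.49 in shCTRL cells, with an adjusted p of 0.0782 (exact permutation test). Sequence around transcription starts held 9.13% ± 0.626 after irradiation (n = 12) and 9.99% ± 0.175 without (n = 4), with an adjusted p of 0.0663 (exact permutation test). In the other windows the means moved the same way. Exons held 7.599% ± 1.07 of their ends in shHMGB1 and 8.82% ± 0.856 in shCTRL cells, and starts held 2.61% ± 0.240 after irradiation and 2.92% ± 0.129 without. Under 4 of the 6 other ways of counting ends at least 1 class passed. The share around starts after irradiation passed in each of the 4, and exons, introns and intergenic sequence between lines passed when clusters were removed library by library.

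Window by window, the fit without a replicate block called 1 gene-dense window between lines and none between irradiated and unirradiated libraries. With a block for replicate number within each line, 44 were called between lines and 14 with irradiation. Calls over all windows are not given here for this fit, for DESeq2 or for fits without 1 library. Their counts therefore do not tell whether gene-dense windows were called more often than others. What libraries of the same number share is not given in the sources used here. edgeR's quasi-likelihood test, with Benjamini-Hochberg adjustment over 2578 windows, called 4 windows (0.155%) lower in shHMGB1 cells, and 1 of the 224 gene-dense windows was among them. That window, chr18:36000001-37000000, holds 33 counted genes, 9 of them protocadherins, cell adhesion proteins of neurons, and its leading gene by ends is Ankhd1, a large ankyrin-repeat protein. It averaged 344 ± 32.0 CPM per Mb in shHMGB1 cells, from 270 to 377, and 455 ± 51.4 in shCTRL cells, from 388 to 551 (SD, n = 8 each). The lines did not overlap, and the log2 difference was -0.39 ± 0.08 (SE, edgeR adjusted p = 0.0363). It failed the test in 10 of 16 fits without 1 library, with adjusted p from 0.00412 to 0.201, and when library totals replaced TMM factors. Irradiation called 0 of 2578 windows (0%), with 57 of 224 gene-dense windows and 14.8% of all windows at an unadjusted p under 0.05, and DESeq2 called 0 of the gene-dense windows. The difference between lines in the irradiation response called 0 windows with edgeR and 0 gene-dense windows with DESeq2, with 6 of 224 gene-dense windows and 4% of all windows at an unadjusted p under 0.05. Between lines 73 of 224 had an unadjusted p under 0.05, against 17.2% of all windows, and DESeq2 called 7. The count rested on single libraries, with 45 gene-dense windows called without shCTRL at 3 Gy replicate 1, 32 without shHMGB1 at 3 Gy replicate 1, and 0 or 1 without any other library. With irradiation it was 3 without shHMGB1 at 3 Gy replicate 1 and 1 without shCTRL at 3 Gy replicate 2.

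The gene-dense windows leaned to one side in both comparisons. Between lines the log2 difference was below 0 in 198 of 224, against 48.2% of all windows tested, with a median of -0.17. Between irradiated and unirradiated libraries it was below 0 in 196 of 224, against 48.3% of all windows, with a median of -0.16. The median over the 2187 other autosomal windows was 0.02 in both. With library totals in place of TMM factors the medians over gene-dense windows were -0.12 and -0.13, with 184 and 182 below 0, and those over all windows 0.05 and 0.04. Windows of 1 library go up or down together, and both comparisons use the same 16 libraries, so these counts describe the same shift as the share and add no separate evidence. Tandem-family windows leaned less, with medians of -0.06 between lines and -0.07 with irradiation, against -0.18 in both for the other gene-dense windows. In the difference between lines in the irradiation response, 178 of 224 were below 0, against 50.9% of all windows, with a median of -0.18.

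**Figure D4:**
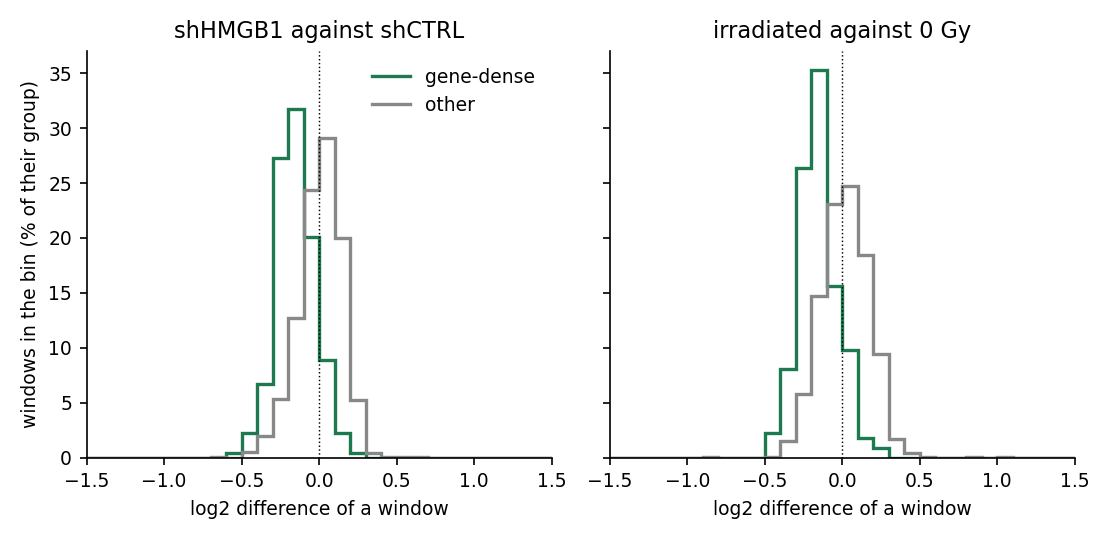
Percent of windows (vertical axis) in bins of 0.1 of the log2 difference (horizontal axis), for shHMGB1 against shCTRL (left) and irradiated against 0 Gy (right), with 224 gene-dense windows in green and 2187 other autosomal windows in grey. The gene-dense curve is centred near -0.17 and -0.16, and the other curve near 0.02.

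Of 8486 protein-coding and long noncoding genes that overlap gene-dense windows, 3176 passed the count filter. edgeR's quasi-likelihood test over 12586 genes called 27 (0.215%) between lines, and 9 of these overlapped gene-dense windows, 2 higher (0.0477% of all genes tested were called higher) and 7 lower (0.167% were called lower) in shHMGB1 cells. It called 3 genes (0.0238%) between irradiated and unirradiated libraries, of which 2 lay in gene-dense windows, 1 higher (0.00795% of all genes were) and 1 lower (0.0159% were) after irradiation. At an unadjusted p under 0.05 there were 315 of the 3176 genes between lines, against 9.76% of all genes tested, and 284 with irradiation, against 7.13%. The log2 difference was below 0 in 1821 of them between lines, against 46.3% of all genes, in 1999 with irradiation, against 51.2%, and in 1740 for the difference between lines in the irradiation response, against 49.3%. The difference between lines in the irradiation response called 0 of 12586 genes (0%), with 164 of 3176 genes in gene-dense windows and 5.2% of all genes at an unadjusted p under 0.05. With a block for replicate number within each line the counts in gene-dense windows were 41 between lines and 8 with irradiation. Calls over all genes are not given here for this fit or for those without 1 library. Their counts therefore do not tell whether genes in gene-dense windows were called more often than others. Without shHMGB1 at 3 Gy replicate 1 the counts in gene-dense windows were 48 between lines and 8 with irradiation, and without shCTRL at 3 Gy replicate 2 they were 19 between lines and 5 with irradiation. Over all fits without 1 library they ranged from 5 to 48 between lines, with 5 without shCTRL at 5 Gy replicate 2 or at 10 Gy replicate 2, and from 1 to 8 with irradiation, with 1 without either unirradiated shHMGB1 library. Levels are given in CPM over the whole gene, scaled to the library's total outside dense regions without TMM factors.

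Neat1, a nuclear noncoding RNA on which paraspeckles are built, fell in shHMGB1 cells. It had 210, 478 and 731 CPM at the lowest, median and highest of 8 shHMGB1 libraries, and 696, 845 and 1195 in shCTRL cells. Only the highest shHMGB1 and the lowest shCTRL library crossed, and the log2 difference was -0.86 ± 0.14 (SE, edgeR adjusted p = 1.55e-04). Neat1 passed in all 16 fits without 1 library and in 11 of 13 other settings, with log2 differences of -0.87 to -0.51 over the latter. Its neighbour Malat1 did not pass, at 4203 ± 896 in shHMGB1 and 5489 ± 925 in shCTRL cells (SD, n = 8 each), with a log2 difference of -0.32 ± 0.14 and an adjusted p of 0.435 (edgeR).

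Calr, the calcium-binding chaperone calreticulin of the endoplasmic reticulum, had 56.9, 112 and 138 CPM in shHMGB1 and 104, 189 and 272 in shCTRL cells. Only 1 shCTRL library, at 0 Gy replicate 1, lay in the shHMGB1 range, and the log2 difference was -0.76 ± 0.16 (SE, edgeR adjusted p = 0.00571). The base shown above held 301 of its 1238 ends, and with each position counted once the call was lost. Fkbp2, another endoplasmic reticulum protein, a prolyl isomerase, had 2.79, 9.07 and 19.9 CPM in shHMGB1 cells, against 9.73, 25.8 and 92.8 in shCTRL cells (log2 difference -1.65 ± 0.35, edgeR adjusted p = 0.0111). Of its 164 ends 67 lay at 1 position, and with at most 3 ends per position it did not pass.

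The other 4 lower genes rest on fewer ends. Atf5, a stress-responsive transcription factor, had 359 ends (log2 difference -1.12, edgeR adjusted p = 0.0150), and Lamb2, a laminin chain of basement membranes, had 348 (-1.04, edgeR adjusted p = 0.0426). Adamtsl5, a matrix protein of microfibrils, had 133 (-1.66, edgeR adjusted p = 0.0235), and Shkbp1, an adaptor of receptor endocytosis, had 147 (-1.80, edgeR adjusted p = 0.0235). The ranges of the lines overlapped in each of the 4. Atf5 overlaps Nup62 and Il4i1, and Shkbp1 overlaps a predicted gene, and reads carry no strand to separate them. Leaving out shCTRL at 0 Gy replicate 2 ended each of these 4 calls and those of Calr and Fkbp2.

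Apol6, of the apolipoprotein L family, rose in shHMGB1 cells. It had 9.17, 18.5 and 29.1 CPM in shHMGB1 libraries. In shCTRL cells 5 of 8 libraries were at 0 and the highest, at 10 Gy replicate 1, had 20.4. The totals were 98 ends in shHMGB1 and 18 in shCTRL cells, and edgeR's adjusted p was 0.00184. Apol6 thus passed the count filter through shHMGB1 libraries, where it is high. The call held in all 16 fits without 1 library and in 9 of 10 other settings. The log2 difference was 3.81, and 1.93 to 4.82 over those other settings. The gene overlaps Mb, the myoglobin gene. Muc4, a membrane-bound mucin, had 69.4, 171 and 231 CPM in shHMGB1 cells, against 73.8, 99.2 and 146 in shCTRL cells (log2 difference 0.72 ± 0.16, edgeR adjusted p = 0.0221). A single position outside annotated exons, chr16:32776622, held 1027 of its 1199 ends, and with at most 3 ends per position the difference was 0.03 on the log2 scale (adjusted p = 0.991).

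Apol8, also of the apolipoprotein L family and in the same window as Apol6, rose after irradiation. It had 17.2, 26.0 and 58.4 CPM at the lowest, median and highest of 12 irradiated libraries, and 1.87, 3.03 and 4.34 in the 4 unirradiated ones. The groups did not overlap in either line, and the log2 difference was 3.08 ± 0.51 (SE, edgeR adjusted p = 5.56e-04). The unirradiated value rests on 6 ends in 4 libraries, the irradiated one on 195. Apol8 thus passed the count filter through its irradiated libraries, so the lack of overlap is a description and no separate support. DESeq2 gave an adjusted p of 0.0638. Taco1, a translational activator of a mitochondrial oxidase subunit, fell after irradiation, with 42.0, 85.3 and 156 CPM in irradiated libraries, against 145, 169 and 208 in unirradiated ones (log2 difference -0.91 ± 0.18, edgeR adjusted p = 0.00848). A single position outside annotated exons, chr11:106066776, held 445 of its 906 ends, and with each position counted once the difference was -0.33 (edgeR adjusted p = 0.826). DESeq2 gave an adjusted p of 0.0638, and leaving out either unirradiated shHMGB1 library or shCTRL at 0 Gy replicate 1 ended the call.

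**Figure D5:**
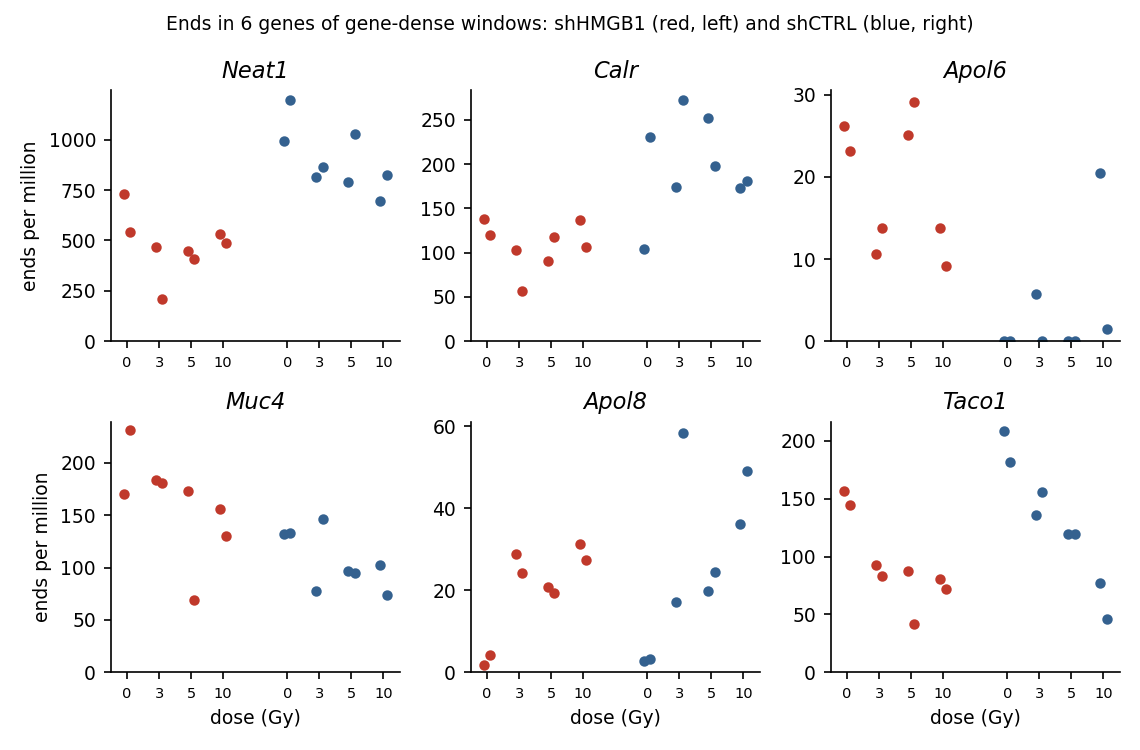
Ends in CPM (vertical axes, from 0) in 6 called genes by dose in Gy (horizontal axes), with a point for each library, shHMGB1 left in red and shCTRL right in blue. Neat1 and Calr were lower and Apol6 and Muc4 higher in shHMGB1 cells, while Apol8 was near 0 in the 4 unirradiated libraries and Taco1 was highest there.

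Among the lists, 0 of 23 tested ribosomal protein genes, 0 of 8 snoRNA hosts and 2 of 19 tested highly transcribed genes, Neat1 and Calr, passed between lines, and 0 of each with irradiation. Over all genes tested 0.215% passed between lines and 0.0238% with irradiation. The ribosomal protein genes had log2 differences below 0 between lines in 23 of 23, with a median of -0.37, against 46.3% of all genes tested. The snoRNA hosts had 8 of 8 below 0, with a median of -0.34. Of break-repair genes 0 of 6 tested passed in either comparison, of p53 targets 0 of 3 and of immediate early genes 0 of 3. With so few genes called over all, counts of 0 in short lists say little about these genes. Of the 90 keratin genes only Krt80 passed the count filter, and of the kallikrein and histone genes none did.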

How the data were processed

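The 16 BLISS libraries were deposited as lists of end positions with a count of ends at each, raw and not normalised, per the file values. Per the submitters' processing notes, the build was mm10 and the tools bedtools, UMI-tools, SAMtools, BWA (version 0.7.5-r404) and Trimmomatic (version 0.32), and the settings are not given in the sources used here. The other assays of the series were not analysed here.

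Deposited counts were summed over 1 Mb windows and GENCODE M21 genes, outside 32 dense regions. Shares and densities were compared with exact permutation tests within dose or line, or by sign flips over libraries. Counts per window and gene were tested with edgeR 4.0.16 (quasi-likelihood, TMM, 8 group means, filterByExpr, Benjamini-Hochberg, threshold 0.05) in R 4.3.3, with DESeq2 1.42.0 as an alternative. Density is per Mb of window, since no genome was at hand to leave out unsequenced bases. On simulated counts with 200 features changed 2-fold between lines, the window fit recovered 100% over 2578 windows and the gene fit 53.5% over 12586 genes. The simulated libraries were independent, and the line differences of gene-dense windows were smaller than 2-fold, from -0.53 to 0.21 on the log2 scale. The recovery therefore does not tell how many such differences the window fit would miss. Genes were named if past a test or among the densest of a list, and windows if past a test or extreme in density or gene number. The members and lists were chosen with earlier results of these data known. Tables were made with Python 3.11.15, numpy 2.4.6, pandas 2.3.3 and scipy 1.17.1, and figures with matplotlib 3.10.9. One gene and its window are not reported here.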

Additional observations from a re-analysis of the deposited data

Results flagged for a closer look

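Of 57 groups of libraries looked at, 4 had a library far from the others, and chance flags about 1 group in 20. Apol6 had 20.4 CPM in shCTRL at 10 Gy replicate 1, and the next shCTRL library had 5.72. Fkbp2 had 92.8 CPM in shCTRL at 5 Gy replicate 2, against 45.5 in the next. Lamb2 had 156 CPM in shCTRL at 0 Gy replicate 2, against 66.6 in the next. The window chr18:36000001-37000000 had 270 CPM per Mb in shHMGB1 at 3 Gy replicate 2, below the next lowest of 342. Ends on the mitochondrial genome, which no comparison used, made up 0.217% to 0.478% of a library.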

How the results depend on the processing

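The density ratios of gene-dense over other windows and of tandem-family over other gene-dense windows kept their direction and passed in every alternative run, with log2 ratios of 0.42 to 0.98 and of -0.63 to -0.38. The 4 tests of the share kept their direction and failed in every alternative, except that the line difference passed in 2 of the 16 fits without 1 library. Without 1 library the line difference ranged from -2.02 to -1.22, irradiation from -1.95 to -1.04, the difference between lines from -2.50 to -0.69 and the slope from -0.136 to -0.0420. The log2 ratio around starts was -2.50 with dense clusters kept and 0.0824 with clusters removed library by library. Region classes past the test numbered 1 with all ends, 4 with clusters removed library by library, 1 with each position counted once, 1 with at most 3 ends per position, and 0 to 4 without 1 library. The share around starts between lines was 0.00305 points in libraries thinned with each position once, and that of introns with irradiation was -0.000925 with each position once and -0.488 in libraries thinned so.

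Gene-dense windows called between lines numbered 0 in thinned libraries, 0 without TMM, 0 when libraries were summed by line and number, 0 with windows shifted by 500 kb, 7 with DESeq2 and 0 to 45 without 1 library. With irradiation 0 to 3 were called without 1 library. Genes in gene-dense windows called between lines numbered 15 with each position once, 2 thinned, 0 thinned with each position once, 1 when summed, and 5 to 48 without 1 library. With irradiation they numbered 1 with each position once, 1 with at most 3 ends, 0 thinned, 0 thinned with each position once, 0 with DESeq2 and 1 to 8 without 1 library. Neat1, Apol6 and Apol8 passed in all 16 fits without 1 library. In other settings Neat1 passed in 11 of 13, and Apol6 and Apol8 in 9 of 10 each. The cause of these changes was not tested.

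Replicate numbers did not pair the lines. Deviations of same-numbered libraries correlated at 0.22 to 0.35 within shCTRL, above 0.1 in 6 of 6 pairs of doses, and at 0.07 to 0.17 within shHMGB1, above 0.1 in 5 of 6, and at -0.39 to 0.07 between lines. With a replicate block the line difference of the share was -1.62 points (exact permutation test, p = 0.0625), and 14 genes in gene-dense windows were called between lines. With a block within each line 44 gene-dense windows and 41 genes in such windows were called between lines. With irradiation that fit called 14 gene-dense windows and 8 genes in such windows. Density per Mb of the whole window was not a separate run, as it is the density used. Thinning with each position once, the median window and the runs without the window of Malat1 and Neat1 were chosen after seeing the data. The smallest library, with 132390 ends, limits the precision of shCTRL at 3 Gy.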
